A study of Drosophila melanogaster with 6 samples.

Results

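The imaginal disc growth factors (Idgf) are 6 secreted glycoproteins of Drosophila melanogaster, Idgf1 to Idgf6, and they were described here in wing imaginal discs. The members were the probe sets whose only annotated gene symbol was Idgf1, Idgf2, Idgf3, Idgf4, Idgf5 or Idgf6, which gave 6 genes, with 1 probe set each, of 10844 genes named this way on the array. The discs came from wild-type larvae of the third instar, with no mutation or treatment named, and each was dissected into a fragment of body wall (the dorsal thorax, or notum) and a fragment of wing and hinge. Total RNA of each fragment was measured on 3 Affymetrix arrays, which the labels call biological replicates. The labels used here do not say that they came from separate dissections, so p-values measure only the spread between these samples, which may be technical. The number of discs per array is not given in the sources used here.

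Idgf proteins are relatives of chitinases and share their barrel-shaped glycosyl hydrolase fold. A glutamate needed for cleaving chitin is replaced in them, and no chitinase activity is known for them. They were found as proteins that promote the growth of cultured imaginal disc cells, together with insulin. In larvae the fat body and haemocytes secrete them into the haemolymph, and they have also been linked to cuticle formation and wound repair. Idgf6 is also known as Chit.

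The arrays and fragments were checked first. Values are linear intensities as deposited, with a 2% trimmed mean of 300 to 300.1 on every array, and 77.1% to 83.1% of fly probe sets lay above an intensity floor of 20.4, the 20th percentile of all values of fly probe sets. Probe sets that target mouse, yeast or bacterial RNA gave 55.1 at their 95th percentile and 91.8 at most, so intensities in that range are close to background. Markers of the 2 regions differed between the fragments. Of 10 tested markers of the body wall epithelium 4 were higher in body wall (pnr, eyg, B-H1 and sr) and none in wing/hinge. For tup, not counted among the 4, 1 of 2 probe sets was called, but not the one with the higher mean log2 value that stood for the gene. Of 10 tested wing pouch and hinge markers 8 were higher in wing/hinge (nub, pdm2, dve, Dll, bi, zfh2, Sox15 and vvl) and none in body wall (limma, adjusted p under 0.05). At an unadjusted limma p under 0.05 the counts were 7 and 0, and 9 and 0. Among all probe sets tested, limma called 0.59% toward body wall and 0.325% toward wing/hinge. The unadjusted threshold was passed by 8.97% of them, counting either direction. The smallest log2 differences in the 2 marker lists were 0.31 for mirr and -0.46 for rn, which did not pass. Some called wing pouch and hinge genes had further probe sets that were not called. Called were 2 of 3 for nub and for Sox15, 1 of 3 for pdm2 and 1 of 2 for zfh2. The arrays also divide by their highest value. On body wall 1, wing/hinge 1 and wing/hinge 2 it was 24976 or more, here called wide-range arrays, and on body wall 2, body wall 3 and wing/hinge 3 it was 14881 or less, here called narrow-range arrays. Aliases in the labels give body wall 1 and body wall 2 the same number, the latter with an added R, and the SD of their log2 differences (0.814) was like that of other replicate pairs (0.735 to 0.868).

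Idgf4 was the member that differed between the fragments, about 5-fold higher in body wall. Its intensities were 5375, 4487.5 and 4472.5 in body wall and 961.6, 847.9 and 953.5 in wing/hinge. The 3 body wall arrays thus lay far above the 3 wing/hinge arrays, and both fragments gave signals well above the control probe sets. The mean was 4778 ± 517 for body wall and 921 ± 63.4 for wing/hinge (SD, n = 3 each), a ratio of 5.19, with spreads of 10.8% and 6.89% of the mean. The log2 difference, body wall minus wing/hinge, was 2.37 (SE 0.21, 95% confidence interval 1.86 to 2.88; limma, Benjamini-Hochberg adjusted p = 0.00627 over 11698 probe sets). An exact two-sided permutation test of the 20 splits of the arrays gave p = 0.1, the smallest value this design allows.

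**Figure D1:**
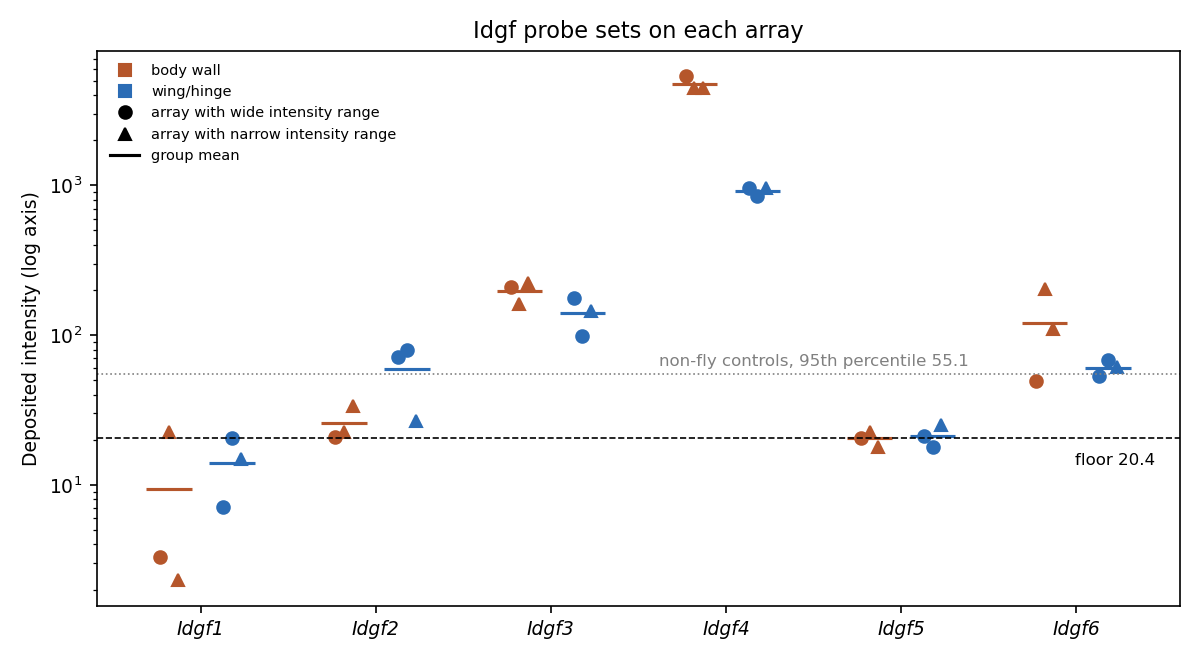
Deposited intensity (log axis) of the 6 Idgf probe sets on each of the 6 arrays, in body wall (brown) and wing/hinge (blue), with circles for wide-range and triangles for narrow-range arrays and horizontal bars for the group means. The dashed line is the floor of 20.4 and the dotted line the 95th percentile of the non-fly controls, 55.1. Idgf4 lies between 4472.5 and 5375 in body wall and between 847.9 and 961.6 in wing/hinge, while Idgf1 and Idgf5 lie near or under the floor in both.

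The difference in Idgf4 was of similar size within each kind of array and with any array left out. The log2 difference was 2.23 among narrow-range arrays (2 of body wall and 1 of wing/hinge) and 2.57 among wide-range arrays (1 and 2). With the 2 kinds of array as a block it was 2.40 (limma adjusted p = 0.0229). Leaving out each array in turn gave 2.28 to 2.42 (limma adjusted p = 0.0347 to 0.0407). Idgf4 was called in all 6 of these fits, which held for 28 of the 107 probe sets called with all arrays, Idgf4 included. Counting body wall 1 and body wall 2 as 1 sample gave 2.35 (limma adjusted p = 0.0291). With the replicate number of the titles as a block the difference was 2.37, but Idgf4 was not called (limma adjusted p = 0.0827).

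Calls like that of Idgf4 were rare across the array. Of the 11698 probe sets tested, 69 (0.59%) were called toward body wall and 38 (0.325%) toward wing/hinge. Among the 69 body wall calls Idgf4 was in place 37 by size of the log2 difference and in place 15 by p-value. Of the 5 Idgf probe sets tested, 1 was called higher in body wall and none higher in wing/hinge (limma; at an unadjusted p under 0.05 also 1 and 0, where 8.97% of all probe sets tested lay under it). Their median log2 difference was 0.52, against 0.03 over all probe sets tested. That median is the value of Idgf3, which was not called. Of the 5, 3 lay above 0 and 2 below, and the 2 below, Idgf2 and Idgf5, were close to background. No lean of the family as a whole is read from it.

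**Figure D2:**
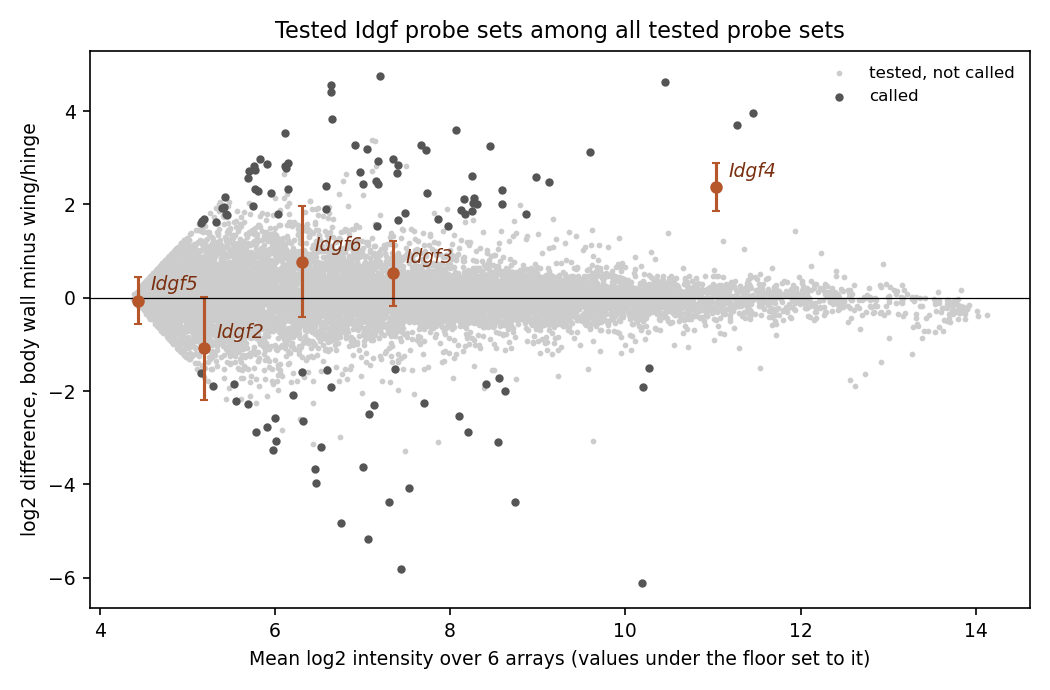
Log2 difference (body wall minus wing/hinge) against mean log2 intensity over the 6 arrays for the 11698 probe sets tested, with the 107 called ones in dark grey and the 5 tested Idgf probe sets in brown with 95% confidence intervals. Idgf4, at 2.37, is among the few called probe sets at high mean intensity, and the intervals of Idgf3, Idgf5, Idgf6 and Idgf2 include 0.

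A further probe set is annotated to both Idgf4 and CG4982 and was therefore no member. Its intensities were 30.8, 13.9 and 31.6 in body wall and 19.3, 22.2 and 21.6 in wing/hinge, all within the range of the control probe sets. The fragments overlapped there, and its log2 difference was 0.34 (SE 0.25; limma adjusted p = 0.792). The 5-fold difference in Idgf4 therefore rests on a single probe set.

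Markers of some other cells that a fragment can carry also lay higher in body wall, and others did not. Of 14 listed haemocyte markers 13 had a probe set and 10 were tested. All 10 had a log2 difference above 0 (median 0.76), 4 did not overlap between fragments, and 1 was called, Col4a1 (2.31, SE 0.26; limma adjusted p = 0.0149), which encodes a chain of collagen IV. The differences ran from 2.82 (SE 0.65; limma adjusted p = 0.171) for vkg, the gene of the other collagen IV chain, to 0.04 (SE 0.52) for the scavenger receptor gene crq. For comparison, 8.48% of all probe sets tested lay higher in body wall without overlap. The summed intensity of the 13 markers was 2159 to 2604 on the body wall arrays and 723.2 to 1005 on the wing/hinge arrays. That separation rests on Col4a1, vkg and ush, a GATA cofactor gene that is also a body wall epithelium marker. These 3 were chosen after their values were seen. Without them the other 10 summed to 1274, 566.6 and 803.9 in body wall and 493.8, 654.4 and 410.8 in wing/hinge, with overlap. Of these 10, 7 were tested, and all 7 still lay above 0, with a median log2 difference of 0.67. None of the 7 was called, and only 1 did not overlap, srp, which lay under the floor in wing/hinge. The plasmatocyte receptor gene NimC1 and the crystal cell factor gene lz lay under the floor on all 6 arrays. Hml, which encodes a haemocyte clotting protein, measured 107.5, 32.0 and 79.8 in body wall and 46.6, 52.1 and 12.8 in wing/hinge, with overlap.

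Of 9 listed fat body markers 5 were tested and none was called (limma; 2 at an unadjusted p under 0.05), with a median log2 difference of 0.96. The summed intensity of the 6 that had a probe set was 1081 to 1186 in body wall and 352.5 to 776.2 in wing/hinge. The fat body genes Lsp2, a larval serum protein gene, and Fbp1, which encodes a receptor for such proteins, lay higher in body wall without overlap, and the difference was largest for Fbp1 (1.81, SE 0.60; limma adjusted p = 0.397) and smallest for the lipoprotein gene apolpp (0.39, SE 0.51). Of 7 tested marker genes for the precursors of adult muscle, which lie beneath the notum epithelium, 5 were called higher in body wall (twi, Him, zfh1, htl and kon), and the summed intensity of the list was 4101 to 4369 in body wall and 3221 to 3601 in wing/hinge. The largest part of that sum was Ama, an adhesion gene, which lay higher in wing/hinge (-0.77, SE 0.22) without passing the test. Most genes listed as tracheal markers lay the other way. Of 5 tested 4 were below 0 and 1 above, and the median log2 difference was -0.44. How far these genes are expressed in other cells of the fragments was not tested, so no amount of tracheal RNA is read from them. None was called (limma, with 1 in each direction at an unadjusted p under 0.05). Their summed intensity was 6366 to 7480 in body wall and 8155 to 10858 in wing/hinge. The largest part of that sum was pio, which measured 5224.0, 4943.9 and 5575.2 in body wall and 8678.6, 7010.4 and 5904.0 in wing/hinge. The lowest was dysf (-0.84, SE 0.56). The member above 0 was btl, the FGF receptor gene of tracheal cells, with the largest difference of this list (1.82, SE 0.43, limma adjusted p = 0.18). It measured 123.5, 80.0 and 37.9 in body wall and 11.6, 18.5 and 14.2 in wing/hinge, without overlap. Of larval muscle markers 3 were tested and none was called (limma; none at an unadjusted p under 0.05), from 0.50 for up to -0.11 for Tm2, and the 1 tested peripodial marker, ems, gave -1.19 (SE 0.65; limma adjusted p = 0.69). The part of these cells in the Idgf4 difference was not tested. In fragments of tissue, more cells of a type and more RNA per cell cannot be told apart.

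Idgf3 was measured clearly in both fragments and did not differ beyond its spread. Its intensities were 209.0, 161.6 and 221.7 in body wall and 177.9, 99.1 and 144.0 in wing/hinge. Each value lay above the controls, and the fragments overlapped because wing/hinge 1 lay above body wall 2. The log2 difference was 0.52 (SE 0.29, 95% confidence interval -0.18 to 1.22; limma adjusted p = 0.7). The interval reaches both no difference and more than a doubling in body wall.

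Idgf6 was uneven within body wall and partly close to background. It measured 49.7, 201.8 and 110.2 in body wall and 53.0, 67.9 and 61.4 in wing/hinge. Body wall 2 and body wall 3 were the highest arrays, and body wall 1 was the lowest of the 6. Body wall 1 and all 3 wing/hinge arrays lay under the highest control value of 91.8, and 2 arrays of each fragment lay above the controls' 95th percentile. The log2 difference was 0.77 (SE 0.50, 95% confidence interval -0.41 to 1.96; limma adjusted p = 0.748), with a spread of 63.5% of the mean in body wall and 12.3% in wing/hinge. The high body wall arrays are both narrow-range. The difference was 1.28 among narrow-range and -0.27 among wide-range arrays, so it did not keep its direction within the 2 kinds of array.

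Idgf2 pointed the other way without passing the test. It measured 21.0, 22.5 and 33.7 in body wall and 70.9, 79.8 and 26.6 in wing/hinge. Wing/hinge 1 and wing/hinge 2 stood above the controls' 95th percentile but under their highest value of 91.8. Wing/hinge 3 lay among the body wall arrays, under that percentile. Idgf2 was thus close to background on every array. The log2 difference was -1.08 (SE 0.46, 95% confidence interval -2.18 to 0.02; limma adjusted p = 0.568). Both high arrays are wide-range, but so is body wall 1, the lowest array. The difference was -1.84 on the wide-range arrays, where body wall 1 alone, near the floor at 21.0, stands for its fragment. On the narrow-range arrays, where wing/hinge 3 alone stands for its fragment, the difference was 0.05.

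Idgf1 and Idgf5 were not measured above background in either fragment. Idgf1 gave 3.3, 22.7 and 2.3 in body wall and 7.1, 20.4 and 14.8 in wing/hinge. It lay above the floor only on body wall 2, failed the filter of 3 arrays above the floor and was not tested. Idgf5 gave 20.5, 22.7 and 18 in body wall and 21.1, 17.8 and 25.0 in wing/hinge. It passed the filter with 4 arrays just above the floor and was not called (limma adjusted p = 0.969). Low RNA and a probe set that responds poorly cannot be told apart for these genes. The Idgf5 estimate (-0.06, SE 0.21) comes from values near the floor, and no difference is read from it or from Idgf1.

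The genes around the members were then compared. Idgf1, Idgf2 and Idgf3 follow each other on chromosome arm 2L in the RefSeq gene table, with no gene listed between them. In body wall against wing/hinge these adjacent genes gave no value, -1.08 and 0.52 on the log2 scale, none of them called. On the other side of Idgf1 lies CG5888, which gave 0.21 (SE 0.48; limma adjusted p = 0.939). Beyond Idgf3 lies dac, which encodes a nuclear factor of leg and eye development and differed by 0.17 on the log2 scale (SE 0.45; limma adjusted p = 0.954). On the X chromosome Idgf4 lies between CG1986 and CG1791. CG1986 gave -0.73 (SE 0.51; limma adjusted p = 0.773), and CG1791 stayed between 3.5 and 11, under the floor on all 6 arrays. Thus CG1986 did not pass the test, and CG1791 was not tested. The nearest measured genes to Idgf5, BomS6 and GstE10, and CG15617 beside Idgf6 failed the filter. Pgant9, on the other side of Idgf6, gave 0.13 (SE 0.43; limma adjusted p = 0.966).

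Among other members of the chitinase family, no gene was called. Of 12 names listed, Cht1, Cht3 and Cht10 are the same gene in the RefSeq gene table, and 9 genes were tested. None of them was called or separated the fragments without overlap (limma; none at an unadjusted p under 0.05 either), and the median log2 difference was 0.24. The summed intensity of the 9 probe sets was 5905 to 6714 in body wall and 5484 to 6711 in wing/hinge. The differences ran from 0.77 (SE 0.34; limma adjusted p = 0.589) for Cht8 to -0.49 (SE 0.76; limma adjusted p = 0.911) for Cht9. Cht10, which encodes a large chitinase, was bright in both fragments, at 2556.3, 2264.6 and 2409.8 in body wall and 2824.3, 2209.6 and 2397.8 in wing/hinge. Cht5, which encodes a chitinase of the moulting fluid, measured 1159.2, 1695.4 and 1929.2 in body wall and 1146.5, 966.4 and 1541.5 in wing/hinge, with overlap.

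Genes that make chitin or organise it in the cuticle gave no call either. Of 14 tested, 9 lay above 0 and 5 below, with a median log2 difference of 0.13. At an unadjusted limma p under 0.05, 2 lay toward body wall and 1 toward wing/hinge. Of all probe sets tested, 8.97% lay under that p in either direction. The extremes were the chitin deacetylase genes serp (0.97, SE 0.30; limma adjusted p = 0.349) and Cda9 (-1.08, SE 0.61; limma adjusted p = 0.7). Over all probe sets tested, 8.48% lay higher in body wall without overlap and 6.53% higher in wing/hinge. Among the 14, the fragments did not overlap for 3 genes that lay higher in body wall, serp, verm and Cda5. The same held for 2 that lay higher in wing/hinge, Cda4 and Gasp. All but serp among these genes without overlap were named after their values were seen. Of these, the chitin-binding protein gene Gasp measured 140.8, 144.5 and 145.1 in body wall and 239.3, 303.6 and 272.0 in wing/hinge (limma adjusted p = 0.174). The chitin deacetylase gene verm measured 6178.4, 5202.4 and 5612.6 in body wall and 3768.5, 3192.1 and 3608.9 in wing/hinge (limma adjusted p = 0.362).

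The adenosine deaminase growth factors are an unrelated family of secreted growth factors named for similar effects on cultured cells. All 5 with a probe set were tested and none was called (limma; none at an unadjusted p under 0.05). Their differences ran from 0.25 (SE 0.41) for Adgf-E to -0.33 (SE 0.68) for Adgf-C, and their median was 0.14. In the insulin pathway, 12 of 21 listed genes had a probe set and 11 were tested, with no call (limma; none at an unadjusted p under 0.05) and a median of 0.07. The largest positive difference was that of ImpL2, which encodes a secreted protein that binds insulin-like peptides. It measured 2001.2, 867.1 and 893.7 in body wall and 787.7, 629.8 and 297.8 in wing/hinge, without overlap (log2 difference 1.13, SE 0.49; limma adjusted p = 0.571). The lowest was Sdr, which encodes another secreted binder of such peptides (-0.20, SE 0.53). The insulin receptor gene InR gave 0.49 (SE 0.31; limma adjusted p = 0.745).

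**Figure D3:**
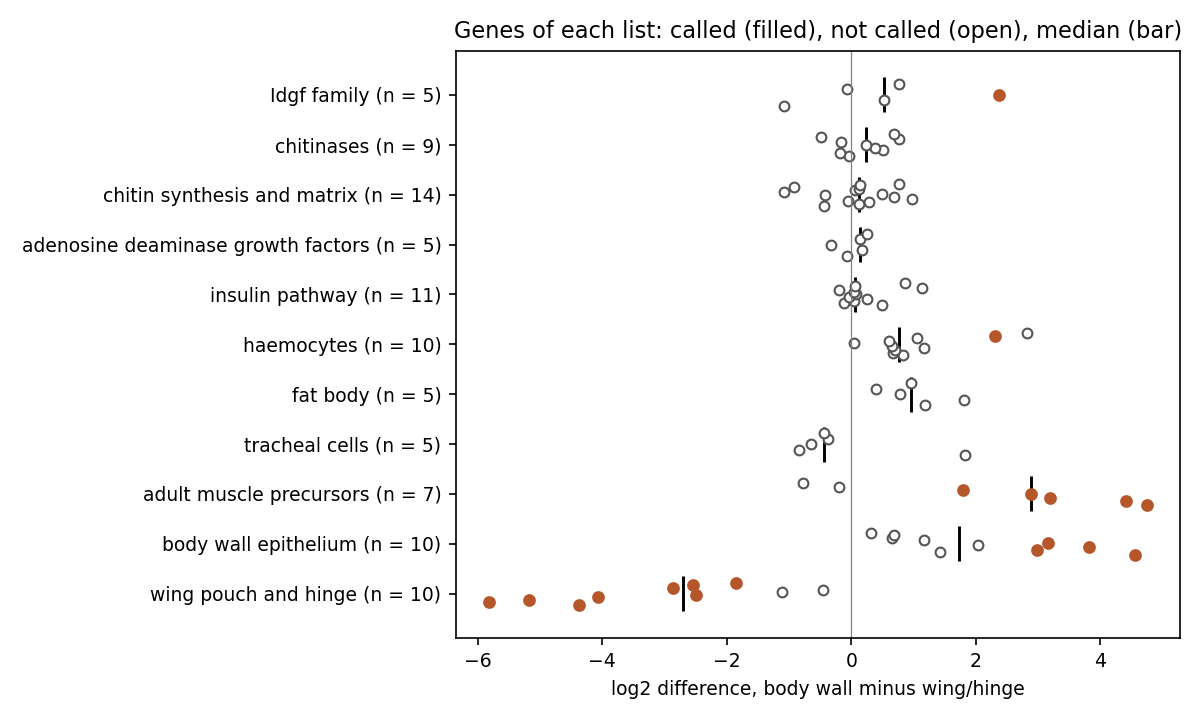
Log2 difference (body wall minus wing/hinge) of each tested gene in the Idgf family and in the lists of related genes and of cell type markers, with filled points for called genes, open points for others, bars for list medians and the number tested in brackets. Idgf4 is the only filled point in the Idgf family and the lists of chitinases, chitin genes, adenosine deaminase growth factors and insulin pathway genes.

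The genes most like Idgf4 across the 6 arrays were found by the root mean square difference of log2 intensities, each probe set centred on its own mean. The nearest was the MADF-domain gene Mes2, at 0.16. It measured 123.2, 121.5 and 132.3 in body wall and 20.2, 4.8 and 22.9 in wing/hinge, where values under the floor were raised to it. CG10947 followed at 0.17, with 102.3, 101.0 and 74.5 in body wall and 15.5, 9.8 and 20.5 in wing/hinge. Both were thus at or near the floor in wing/hinge, unlike Idgf4, and their true differences may be larger than the 2.57 and 2.17 measured. Next was Grip, which encodes a PDZ-domain scaffold protein, at 0.24. It measured 614.0, 542.3 and 728.9 in body wall and 148.8, 154.1 and 152.8 in wing/hinge, and differed by 2.04 on the log2 scale (SE 0.22; limma adjusted p = 0.0134). As the likeness is taken over the same 6 arrays, any gene higher in body wall by about the same amount will score as near.

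For Idgf2 the nearest genes were CG32305 at 0.18, CG42284 at 0.19 and the gustatory receptor gene Gr59b at 0.20. All 3 were high on wing/hinge 1 and wing/hinge 2 and low on the other 4 arrays, as Idgf2 was. They were picked for likeness to Idgf2 on these same arrays, so the shared pattern follows from the choice. CG32305 measured 37.8, 42.3 and 45.5 in body wall and 114.4, 113.1 and 48.1 in wing/hinge, and none of the 3 was called. CG42284 and Gr59b lay under the highest control value of 91.8 on every array, with some values raised to the floor.

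**Figure D4:**
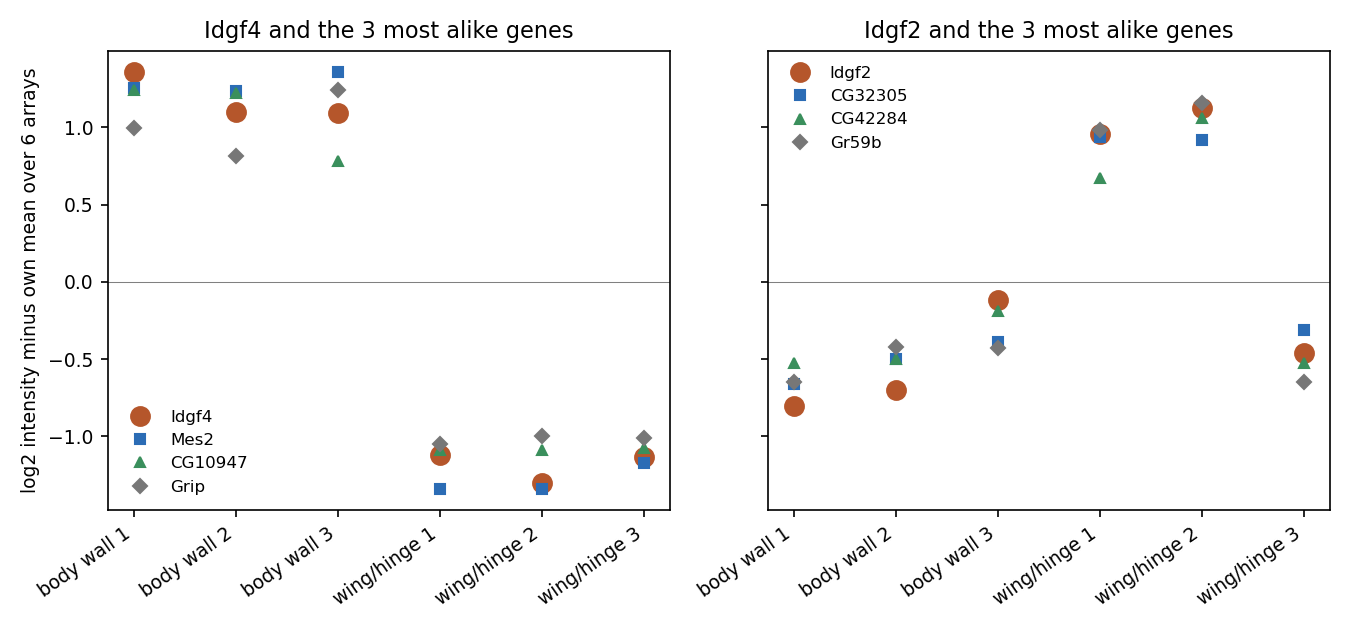
Log2 intensity of each array minus the gene's own mean over the 6 arrays, lower values having been raised to the floor, for Idgf4 and its 3 most alike genes (left) and Idgf2 and its 3 most alike genes (right). The left-hand genes separate body wall from wing/hinge, and the right-hand genes are high on wing/hinge 1 and wing/hinge 2 only.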

How the data were processed

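The values the authors deposited are linear intensities for each probe set on each array. The unit was judged from the numbers (positive, with near-equal trimmed means). Per the labels, targets were made from column-purified total RNA by standard Affymetrix procedures. How probe sets were summarised and scaled, and on which genome build, is not given in these sources. Groups came from the sample titles. Probe sets were named from a platform annotation table, and the 6 Idgf probe sets all matched the RefSeq gene table (assembly Release 6) by gene ID. That table served for names and gene order only, and no sequences are shown.

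Intensities were used without further scaling. Values under the floor of 20.4 were set to it, log2 was taken, and probe sets above the floor on at least 3 of 6 arrays were tested, leaving out 44 controls. The test was limma 3.58.1 under R 4.3.3 (two-sided, without a block), and p-values were adjusted over all 11698 by Benjamini-Hochberg, with a threshold of 0.05. In the lists, the tested probe set with the highest mean log2 value stood for its gene. Named are the members, called list members and each list's extremes, the 3 genes most alike for the 2 members with the largest difference, and the nearest measured neighbours. Others were named after their values were seen. The members and lists were chosen with earlier results of these data known. The number of arrays limits the precision.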

Additional observations from a re-analysis of the deposited data

How the results depend on the processing

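The titles number the arrays 1 to 3 in both fragments. The correlations of deviations of same-numbered arrays were 0.06, -0.16 and 0.19. The last, of the arrays numbered 3, was the highest of any pair, while body wall 1 correlated best with wing/hinge 2 (0.18). With 3 arrays per fragment, correlations this weak cannot decide whether same-numbered arrays belong together. With the array number as a replicate block the Idgf4 difference was again 2.37, its limma adjusted p 0.0827 and the number of Idgf calls 0. Calls over all probe sets fell from 107 to 10. In each of the other 16 alternatives Idgf4 was called, with differences of 2.27 to 2.42. Total calls were 161 with a trended robust variance, 52 with arrays blocked by brightest value, 49 with body wall 1 and 2 averaged, and 34 to 47 with 1 array left out. Idgf3, Idgf6 and Idgf2 kept their sign and were called in none of their alternatives. With 1 array left out they ran from 0.29 to 0.71, 0.29 to 1.30 and -1.58 to -0.79. Idgf5 ran from -0.12 to 0.029 (the latter without wing/hinge 3), values near the floor with no order. Idgf1 could be fitted only with the floor halved or no filter and was not called. Low signal limits what can be said of Idgf1, Idgf2 and Idgf5, and in part of Idgf6. Differences of about the size seen for Idgf3 and Idgf6 are not shown to be absent.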
